A study of Sus scrofa with 9 samples.

Results

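Solute carriers are membrane proteins that move sugars, nucleotides, metals, inorganic and organic ions, vitamins and mitochondrial metabolites across membranes, and each gene family of the SLC series is named by a number and a letter. The genes described here are the solute carriers outside the amino acid families, taken as every probe set with 1 gene symbol that starts with SLC and a digit. The families SLC1A, SLC3A, SLC6A, SLC7A and SLC38A and the genes SLC2A1, SLC34A2 and SLC40A1 were left out. This gave 146 of the 23999 endogenous probe sets and 100 of the 6765 genes with a symbol of their own. Among them, 97 are carriers, and the others (SLC9A3R1, SLC9A3R2 and SLC2A4RG) share only the prefix. They were grouped by substrate.

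A secreting mammary epithelial cell takes up glucose, ions, metals, vitamins and nucleosides from blood, and it moves nucleotide sugars into the Golgi, where lactose is made and proteins are glycosylated. Lactose draws water into milk, so Golgi and sugar carriers belong to the machinery that sets milk volume. Mitochondrial carriers exchange nucleotides, phosphate and citrate with the cytosol, and exported citrate is a source of acetyl-CoA for milk fat in tissues that use it.

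Gene expression was measured in mammary gland biopsies of Large White sows in late pregnancy (day -17, labelled as within 2 days of it), on day 1 after farrowing and in lactation (day 17). The animals were 6 sows on a corn and soybean meal diet, each biopsied on all 3 days, and no treatment, mutation or age was given. RNA of 2 sows was pooled for each of 9 Affymetrix porcine arrays, 3 pools a day. The values are linear MAS5 signals scaled by the authors to 1 trimmed mean per array, so each difference is relative to that mean.

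A probe set was tested where it reached the 40th percentile of its array in at least 3 arrays, and this left 108 of the 146 probe sets and 81 of the 100 genes. Of the 81, 1 (SLC22A8) reached that level on the arrays of day 17 alone. Differences are log2 of the later over the earlier day ± standard error in limma (n = 3 pools per day), and a change was called at an adjusted p under 0.05, adjusted over all 15519 tested probe sets. Each gene is given by its brightest tested probe set, by mean log2 signal over the 9 arrays. In 23 genes with several tested probe sets, these differed in sign for 10 on day 1 against day -17 and for 6 on day 17 against day -17. P values measure the spread between pools of the same day, and the number of arrays limits the precision. In biopsies of whole tissue, fewer cells of a type and less RNA per cell cannot be told apart.

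Several markers bear on the samples as a whole. The 7 milk protein genes summed to 60484 to 85934 on day -17, 216822 to 304308 on day 1 and 458643 to 468487 on day 17. The 9 adipocyte markers summed to 11307 to 31052 on day -17, 17492 to 28559 on day 1 and 23166 to 26190.1 on day 17, and 5 of them fell and 2 rose on day 17 against day -17. Of 12 fibroblast markers, 8 fell in that comparison, with sums of 85050.2 to 114452 on day -17, 50911 to 106315 on day 1 and 45703 to 52788 on day 17. Of 16 luminal epithelial markers, 5 rose (EPCAM, CLDN3, CLDN4, MUC1 and LTF) and 3 fell (KRT8, KRT19 and FOXA1) on day 17 against day -17, with sums of 27725 to 48208 on day -17, 53857 to 78936 on day 1 and 74252 to 97124 on day 17. Of 6 myoepithelial markers, 4 rose (ACTA2, ACTG2, MYL9 and OXTR) and 0 fell, with sums of 25273 to 31984 on day -17, 39425 to 52024 on day 1 and 35707 to 57902 on day 17. The erythrocyte markers HBB and ALAS2 fell, 2 of 3, with sums of 1587 to 3354 on day -17, 870.3 to 1303 on day 1 and 749.9 to 839 on day 17. Of 9 endothelial markers, 1 fell, and on day 1 against day -17, 2 of 5 T and NK cell markers fell. The part of these cell types in the carrier results was not tested. By limma, 23.8% of all tested genes rose and 23.8% fell on day 17 against day -17. On day 1 against day -17, 10.4% of them fell. None of the 6 skeletal muscle markers on the array passed the filter.

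On day 1 against day -17, 18 of the 81 tested genes were higher and 4 were lower. This was 22.2% and 4.94%, against 15.3% and 10.4% of all 5670 genes tested. Between day 17 and day 1, 9 were higher and 4 lower on day 17 (11.1% and 4.94%, against 8.02% and 8.57%). For day 17 against day -17, 29 were higher and 13 lower (35.8% and 16.05%, against 23.8% and 23.8%). The F test over the 3 days called 38 genes, 46.9% of those tested and close to the 47.8% of all genes. The shares called either way were also near the background, at 27.2%, 16.05% and 51.9% of the carriers, against 25.7%, 16.6% and 47.6% of all genes, so these shares do not set the carriers apart. The counts given for each group, list and marker set have the same shares of all genes as their background. The median log2 difference of the carriers was 0.06, 0.17 and 0.19 in the 3 comparisons, beside -0.00082, -0.035 and -0.032 for all genes tested.

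The 3 values of each day did not overlap for 34, 31 and 50 of the 81 genes in the 3 comparisons, which was 41.98%, 38.3% and 61.7%, against 41.3%, 37.6% and 60.8% of all genes. These counts depended on the scaling. Control transcripts of E. coli, meant to be added in fixed amounts, gained signal over the days, and scaling the arrays to their 21 probe sets (E. coli scaling) lowered every log2 difference by 0.43, 0.87 and 1.30. The carriers then split into 12 higher and 24 lower on day 1 against day -17, 0 and 49 on day 17 against day 1, and 7 and 53 on day 17 against day -17. Rises smaller than these shifts turn under that scaling, in the other genes named here too. The median over all tested probe sets moved to -0.49, -0.88 and -1.38 under that scaling. With the pool number as a block, the lower count on day 1 against day -17 was 8 instead of 4. Among these 8, SLC16A13, SLC39A4, SLC44A4 and SLC5A4 were added by the block (adjusted p = 0.00973, 0.0294, 0.0246 and 0.0365 in that order). The lower count on day 17 against day -17 was 13, but 8, 7, 7, 8 and 7 without day -17 pool 1 or 3 or day 17 pool 1, 2 or 3. The lower count on day 17 against day 1 was 4, but 2 without day 17 pool 1 or 3.

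**Figure D1:**
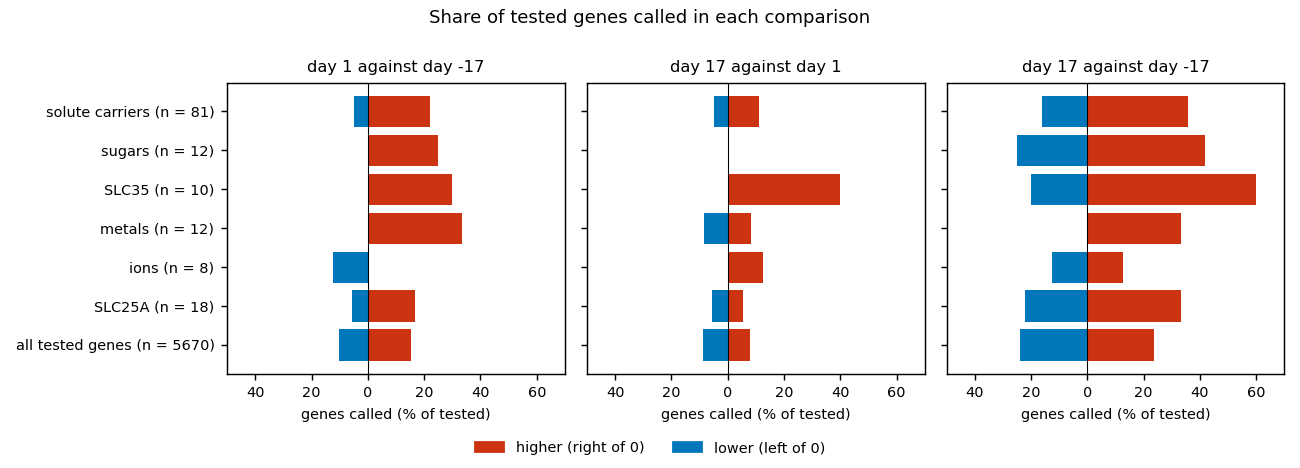
Percent of tested genes called higher and lower by limma (adjusted p under 0.05) for all 81 solute carriers and the 5 groups with at least 8 tested genes, in each comparison, with all 5670 tested genes in the lowest row. Bars right of 0 are genes called higher and bars left of 0 genes called lower. The 10 SLC35 genes have the longest bar for higher calls, with 6 of 10 on day 17 against day -17, and the split between higher and lower turned under E. coli scaling.

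Among the 12 tested sugar carriers, calls went both ways in lactation, and the share that fell was near that of all genes. On day 17 against day -17, 5 rose and 3 fell (41.7% and 25%, against 23.8% and 23.8% of all genes). On day 1 against day -17, 3 rose and 0 fell (25% and 0%, against 15.3% and 10.4%). By limma, 0 of the 12 passed on day 17 against day 1, 1 had an unadjusted p under 0.05, and the smallest p was that of SLC5A10 (0.73 ± 0.23, adjusted p = 0.0561). The median log2 difference of the 12 was -0.039, 0.17 and 0.18 in the 3 comparisons.

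SLC50A1 encodes the vertebrate SWEET1, a facilitative sugar carrier found in the Golgi. Its signal was 661, 753 and 666 on day -17, 2146, 1882 and 3069.6 on day 1 and 2710.3, 2649.6 and 3085 on day 17. Every pool of day 1 and of day 17 lay above every pool of day -17, while days 1 and 17 overlapped. SLC50A1 rose 3.34-fold on day 1 against day -17 (1.74 ± 0.18, adjusted p = 0.000188) and 4.06-fold on day 17 (2.02 ± 0.18, adjusted p = 2.58e-05).

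SLC37A1, an exchanger of glucose 6-phosphate for phosphate in the endoplasmic reticulum, averaged 158 ± 24.4 on day -17, 313 ± 81.5 on day 1 and 328 ± 30.8 on day 17 (SD, n = 3 pools each). It rose on day 1 (0.96 ± 0.23, adjusted p = 0.0137) and on day 17 (1.06 ± 0.23, adjusted p = 0.00393) against day -17, a direction that turned on day 17 with E. coli scaling (log2 -0.25). The day 1 call was lost on leaving out day 1 pool 3 (adjusted p = 0.058). SLC2A4 encodes GLUT4, the glucose carrier that insulin brings to the cell surface of fat and muscle. Its signals were 70.9, 45.7 and 46.6 on day -17, 183, 135 and 133 on day 1 and 259, 195 and 129.9 on day 17, with all 3 day -17 arrays below the filter level. SLC2A4 rose on day 1 (1.48 ± 0.32, adjusted p = 0.0096) and on day 17 (1.81 ± 0.32, adjusted p = 0.00148), by 2.37-fold and 2.93-fold with a pseudocount of 16. Of the 9 adipocyte markers, CIDEA rose and RBP4 and GPD1 fell on day 1 against day -17. On day 17 against day -17, CIDEA (4.08 ± 0.45) and FABP4 (0.66 ± 0.24) rose, ADIPOQ, LIPE, RBP4, GPD1 and CFD fell, and PPARG and LEP did not pass. CIDEA had signals of 6537, 5761 and 5297 on day 17, against 608, 159 and 426 on day -17, and ADIPOQ had 23.2, 8.87 and 7.22, against 547, 73.9 and 319. The part of fat cells in the SLC2A4 result was not tested.

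SLC45A3, of a family of proton-coupled sugar carriers, and SLC5A10, a sodium-coupled carrier of mannose and fructose, passed on day 17 against day -17 alone. SLC45A3 averaged 476 ± 49.6 on day 17, against 206 ± 44.9 on day -17 (1.23 ± 0.26, adjusted p = 0.00353), and SLC5A10 309 ± 66.7 on day 17, against 169 ± 11.5 on day -17 (0.85 ± 0.23, adjusted p = 0.0113). On day 1 against day -17 SLC45A3 had a log2 difference of 0.74 ± 0.26, adjusted p = 0.0617, and it passed with the pool number as a block (adjusted p = 0.0242). Both turned direction on day 17 against day -17 with E. coli scaling (log2 -0.078 for SLC45A3 and -0.45 for SLC5A10).

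The 3 sugar carriers that fell on day 17 against day -17 were SLC2A5, SLC5A1 and SLC5A4. SLC5A1 encodes SGLT1, the sodium-coupled glucose and galactose carrier. Its signals were 1939, 1899 and 2218 on day -17, 723, 1576 and 2133 on day 1 and 1159.8, 1034 and 1094 on day 17, so that every day 17 pool lay below every day -17 pool and day 1 spanned both. SLC5A1 fell on day 17 (-0.88 ± 0.31, adjusted p = 0.0407), a call lost on leaving out day -17 pool 1, 2 or 3 or day 17 pool 1, 2 or 3, with median centring and with no intensity trend (adjusted p 0.0627 to 0.11).

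SLC5A4, the related SGLT3, averaged 171 ± 41.8 on day 17, against 273 ± 69.6 on day -17 (-0.68 ± 0.25, adjusted p = 0.0471). Its call was lost on leaving out day -17 pool 1, 2 or 3, day 1 pool 1, 2 or 3 or day 17 pool 1 or 2, with quantile normalization, with median centring, with no filter and with the 6 compared samples alone (adjusted p 0.0524 to 0.179), and on day 1 against day -17 it passed only with the block. SLC2A5 encodes GLUT5, the fructose carrier. It gave 399, 79.9 and 364 on day -17, 174, 119.7 and 110.4 on day 1 and 97.5, 58.1 and 75.6 on day 17, so that pools 1 and 3 of day -17 lay above all others and pool 2 did not. SLC2A5 fell on day 17 (-1.59 ± 0.54, adjusted p = 0.0348), a call lost on leaving out day -17 pool 1 or 3 or day 17 pool 1, 2 or 3 (adjusted p 0.0504 to 0.129), and the log2 difference was -2.34 without day -17 pool 2.

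The other sugar carriers tested were SLC2A3, SLC2A8, SLC2A12 and SLC37A4, of which the first 3 are facilitative glucose carriers and SLC37A4 brings glucose 6-phosphate into the endoplasmic reticulum. None of these 4 passed a comparison, with log2 differences of -0.97 to 0.37 (adjusted p 0.0727 to 0.98). SLC2A3 passed as lower on day 17 against day -17 with the block (adjusted p = 0.0244).

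**Figure D2:**
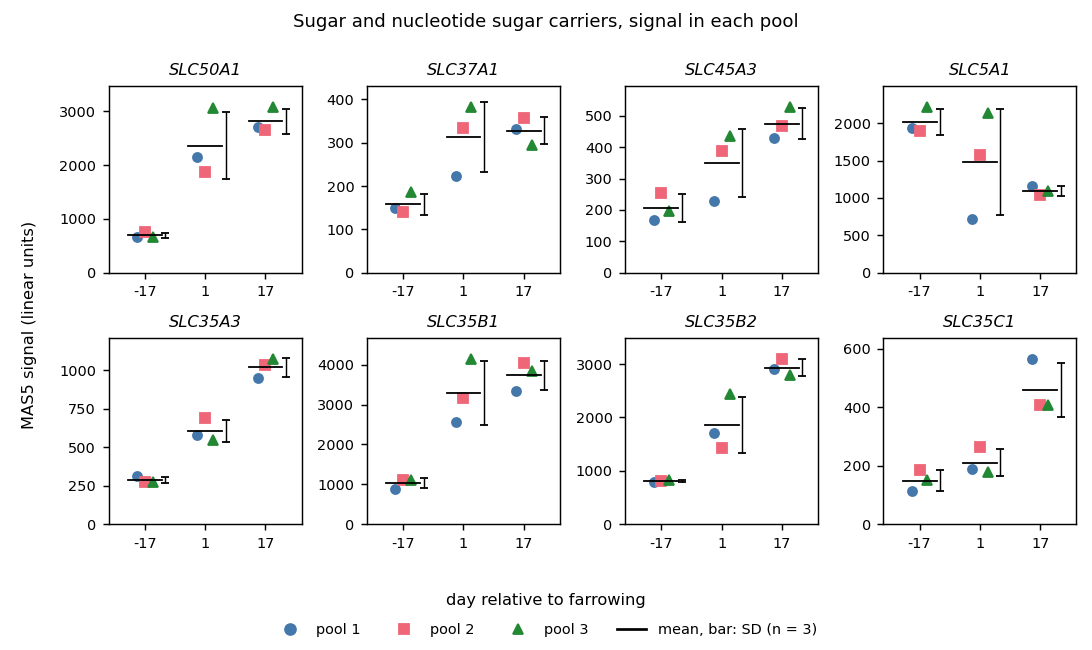
Linear MAS5 signal of 8 sugar and nucleotide sugar carriers in each pool by day relative to farrowing. Each point is 1 pool of 2 sows, the line is the mean and the bar the SD over 3 pools. SLC50A1 and SLC35B1 separate day -17 from both later days, SLC35A3 separates all 3 days, and SLC5A1 lies lowest on day 17 apart from day 1 pool 1. E. coli scaling turned the day 17 differences of SLC37A1 and SLC45A3 from day -17, and those of SLC35A3 and SLC35B2 from day 1.

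The SLC35 family, which carries nucleotide sugars and related substrates into the Golgi and endoplasmic reticulum, had calls in all 3 comparisons. Of 10 tested members, 3 rose and 0 fell on day 1 against day -17 (all genes 15.3% and 10.4%). On day 17 against day 1, 4 rose and 0 fell (all genes 8.02% and 8.57%). Against day -17, 6 rose and 2 fell on day 17 (60% and 20%, against 23.8% and 23.8% of all genes). The median log2 difference of the 10 was 0.38, 0.34 and 0.92 in the 3 comparisons. SLC35A2, the UDP-galactose carrier that lactose synthesis uses, was not analysed here.

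SLC35A3 carries UDP-N-acetylglucosamine. It had signals of 312, 277 and 278 on day -17, 578, 688 and 550.2 on day 1 and 953, 1032 and 1077 on day 17. The 3 days did not overlap in SLC35A3, which rose on day 1 against day -17 (1.06 ± 0.14, adjusted p = 0.000912) and on day 17 against day 1 (0.76 ± 0.14, adjusted p = 0.00942), the second turning with E. coli scaling (log2 -0.12). The rise on day 17 against day -17 was 3.53-fold (1.82 ± 0.14, adjusted p = 1.36e-05).

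SLC35B2 carries PAPS, the sulphate donor, into the Golgi. Its signals were 793, 803 and 826 on day -17, 1713, 1423 and 2448 on day 1 and 2899, 3105 and 2793 on day 17, again without overlap of the days. It rose on day 1 (1.17 ± 0.18, adjusted p = 0.00179) and on day 17 (1.86 ± 0.18, adjusted p = 4.16e-05) against day -17. The smaller rise on day 17 against day 1 (0.69 ± 0.18, adjusted p = 0.0308) turned with E. coli scaling (log2 -0.18) and was lost on leaving out day 1 pool 1 or 2 or day 17 pool 1, 2 or 3, with median centring, with no intensity trend and with the 6 compared samples alone (adjusted p 0.0519 to 0.0963).

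SLC35B1, an exchanger of ATP and ADP in the endoplasmic reticulum, averaged 1038 ± 123 on day -17, 3287 ± 809 on day 1 and 3736 ± 365 on day 17 (SD, n = 3 pools each). It rose 3.12-fold on day 1 against day -17 (1.64 ± 0.18, adjusted p = 0.00031) and 3.61-fold on day 17 (1.85 ± 0.18, adjusted p = 4.41e-05), and days 1 and 17 overlapped. SLC35C1, the GDP-fucose carrier of the Golgi, instead rose late. It had signals of 113, 184 and 152 on day -17, 189.6, 264 and 178 on day 1 and 567, 407 and 408 on day 17. Every day 17 pool lay above all other pools, while days -17 and 1 overlapped. SLC35C1 rose on day 17 against day 1 (1.13 ± 0.25, adjusted p = 0.0159) and against day -17 (1.63 ± 0.25, adjusted p = 0.000569), and its difference on day 1 was 0.50 ± 0.25, adjusted p = 0.165. The day 17 against day 1 call was lost on leaving out day 1 pool 3 or day 17 pool 1 (adjusted p 0.0526 to 0.0608).

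SLC35F5, a member without an established substrate, averaged 1562 ± 244 on day -17, 1739 ± 206 on day 1 and 3136 ± 211 on day 17. It rose on day 17 against day 1 (0.85 ± 0.15, adjusted p = 0.00683) and day -17 (1.02 ± 0.15, adjusted p = 0.00046), both turning with E. coli scaling (log2 -0.020 and -0.29). SLC35A4 rose on day 17 against day -17 (0.83 ± 0.20, adjusted p = 0.00795) and turned likewise (log2 -0.48). SLC35C2, a relative of SLC35C1, and SLC35D2, a carrier of UDP-N-acetylglucosamine and other UDP-sugars, fell on day 17 against day -17.

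SLC35C2 averaged 93.9 ± 23.9 on day 17, against 172 ± 8.58 on day -17 (-0.90 ± 0.29, adjusted p = 0.025), and the call was lost on leaving out day -17 pool 1, 2 or 3 or day 17 pool 2 or 3 and with the mean over its probe sets (adjusted p 0.0512 to 0.375). SLC35D2 averaged 406 ± 59.9 on day 17, against 614 ± 59.6 on day -17 (-0.60 ± 0.20, adjusted p = 0.0337), and the call was lost on leaving out day -17 pool 1 or 3 or day 17 pool 1, 2 or 3, with quantile normalization and with median centring (adjusted p 0.05 to 0.117). SLC35B3, the other PAPS carrier, and SLC35F6 passed no comparison, with log2 differences of -0.50 to 0.40 (adjusted p 0.119 to 0.711), although a second probe set of SLC35F6 was lower on day 17 against day 1 (-1.03 ± 0.29, adjusted p = 0.0409).

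Enzymes that make or use nucleotide sugars in the same compartments were listed beside the carriers. Of 20 tested, 9 rose and 3 fell on day 1 against day -17, 3 rose and 1 fell on day 17 against day 1, and 7 rose and 3 fell on day 17 against day -17. The medians were 0.64, -0.050 and 0.25, beside -0.00082, -0.035 and -0.032 for all genes tested. In these comparisons, 15.3%, 8.02% and 23.8% of all genes rose and 10.4%, 8.57% and 23.8% fell. B4GALT1, the galactosyltransferase part of lactose synthase, rose on day 1 (2.66 ± 0.16, adjusted p = 5.14e-06) and on day 17 (3.27 ± 0.16, adjusted p = 6.46e-07) against day -17. UGP2, which makes UDP-glucose, rose on day 1 (1.88 ± 0.17) and on day 17 (2.85 ± 0.17) against day -17 and on day 17 against day 1 (0.97 ± 0.17). ST6GAL1, a sialyltransferase, fell on day 1 against day -17 (-0.74 ± 0.21, adjusted p = 0.0311) and rose on day 17 against day 1 (0.75 ± 0.21, adjusted p = 0.0427). Its difference on day 17 against day -17 was 0.011 ± 0.21, adjusted p = 0.971.

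Metal carriers made up another 12 tested genes. Of these, 4 rose and 0 fell on day 1 against day -17, 1 rose and 1 fell on day 17 against day 1, and 4 rose and 0 fell on day 17 against day -17, with medians of 0.46, 0.21 and 0.38. Their shares called either way were 33.3%, 16.7% and 33.3%, against 25.7%, 16.6% and 47.6% of all genes. The members that moved carry copper, zinc, magnesium and iron or manganese.

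SLC31A1 encodes CTR1, the copper importer. It had signals of 1233, 1422 and 1580.3 on day -17, 2717, 3820.1 and 3749 on day 1 and 4082, 3816 and 4208 on day 17. All day -17 pools lay below all later pools, and days 1 and 17 overlapped. SLC31A1 rose on day 1 (1.27 ± 0.16, adjusted p = 0.000531) and on day 17 (1.52 ± 0.16, adjusted p = 6.03e-05) against day -17, and its second tested probe set had log2 differences of 1.80 and 1.76.

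SLC39A7, the zinc carrier ZIP7 of the endoplasmic reticulum and Golgi, had signals of 808, 886 and 840.3 on day -17, 1720.4, 1828 and 2610.4 on day 1 and 1859, 2043 and 1893 on day 17. It separated day -17 from both later days in the same way and rose on day 1 (1.26 ± 0.16, adjusted p = 0.00067) and on day 17 (1.19 ± 0.16, adjusted p = 0.000292), the latest difference turning with E. coli scaling (log2 -0.11).

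SLC41A1, a magnesium carrier, differed between all 3 days. Its signals were 273, 290.0 and 289 on day -17, 452, 352 and 485 on day 1 and 932, 829 and 966 on day 17, with no overlap between any 2 days. SLC41A1 rose on day 1 against day -17 (0.58 ± 0.16, adjusted p = 0.0247), on day 17 against day 1 (1.09 ± 0.16, adjusted p = 0.00346) and on day 17 against day -17 (1.68 ± 0.16, adjusted p = 3.84e-05). The day 1 call was lost on leaving out day -17 pool 1, 2 or 3 or day 1 pool 3 and with the 6 compared samples alone (adjusted p 0.0547 to 0.0876). The other probe sets of SLC41A1 had log2 differences on day 1 of 0.19 and 1.47 and on day 17 against day -17 of 1.29 and 2.92.

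SLC11A2 encodes DMT1, the importer of ferrous iron. It averaged 579 ± 117 on day 17, against 306 ± 68.01 on day -17 and rose (0.92 ± 0.28, adjusted p = 0.0218), a direction that turned with E. coli scaling (log2 -0.38). The call was lost on leaving out day -17 pool 1 or day 17 pool 1 or 2 (adjusted p 0.0647 to 0.0777). The second tested probe set of SLC11A2, below the filter level on all day -17 arrays, had 1.85 ± 0.27 (adjusted p = 0.000503), or 1.58 with a pseudocount of 16. The 2 differed in timing. On day 1 against day -17 the second had 1.73 ± 0.27 (adjusted p = 0.00204) and the reported one 0.32 ± 0.28 (adjusted p = 0.439). SLC11A1 encodes NRAMP1, a metal carrier of phagocyte endosomes. It was brightest on day 1, with signals of 76.6, 102 and 96.1 on day -17, 236, 226 and 161 on day 1 and 87.8, 128 and 100.3 on day 17. Day 1 lay above both other days without overlap. SLC11A1 rose on day 1 against day -17 (1.17 ± 0.26, adjusted p = 0.0111) and fell on day 17 against day 1 (-0.98 ± 0.26, adjusted p = 0.0365), the fall being lost on leaving out day -17 pool 3, day 1 pool 1 or 2 or day 17 pool 1 or 3, with no filter and with the 6 compared samples alone (adjusted p 0.0533 to 0.105).

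Of the 7 tested macrophage markers, 1 (CD14) rose and 0 fell on day 1 against day -17, and 0 passed on day 17 against day 1. Their sums were 11165 to 12947 on day -17, 6727 to 17913 on day 1 and 5567 to 7531 on day 17, and on day 1 CD14 gave 248, 307 and 207, against 141, 86.7 and 135 on day -17. The part of these cells in the SLC11A1 result was not tested.

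The other 7 metal carriers were SLC30A3 and SLC30A5, which load zinc into vesicles and the Golgi, the zinc importers SLC39A1, SLC39A4, SLC39A5 and SLC39A14, and SLC31A2, related to the copper importer. None passed a comparison, with log2 differences of -0.92 to 1.12 (adjusted p 0.0556 to 0.902). With the block, SLC30A3 was higher (adjusted p = 0.0197) and SLC39A4 lower on day 1 against day -17.

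Among 11 metal-binding proteins and metal pumps, 3 rose and 1 fell on day 1 against day -17, 4 rose and 0 fell on day 17 against day 1, and 5 rose and 1 fell on day 17 against day -17. The medians were -0.19, 0.22 and 0.67. In these comparisons, 15.3%, 8.02% and 23.8% of all genes rose and 10.4%, 8.57% and 23.8% fell. LTF, the iron-binding milk protein lactoferrin, rose on day 1 (1.44 ± 0.27), and ATOX1, the copper chaperone that takes copper to the secretory pathway, rose too (1.06 ± 0.15). FTL and SOD1, the ferritin light chain and the copper-zinc superoxide dismutase, rose on day 17 against day 1 (0.93 ± 0.10 and 0.65 ± 0.13). SOD1 had fallen on day 1 against day -17 (-0.47 ± 0.13). Its difference on day 17 against day -17 did not pass (0.17 ± 0.13, adjusted p = 0.307). Of the 6 that passed on day 17 against day -17, the 2 with the largest differences were LTF, which rose (1.60 ± 0.27), and the metalloreductase relative STEAP1, which fell (-1.80 ± 0.65). The mean signal of STEAP1 on day 17 was 75.8, below the filter level. The metallothionein MT3 had a larger difference (-2.89) that did not pass (adjusted p = 0.0975).

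Both tested nucleoside carriers rose after farrowing. Of all genes, 15.3% rose on day 1 and 23.8% on day 17 against day -17. SLC28A3 encodes CNT3, the concentrative sodium-coupled carrier of purine and pyrimidine nucleosides. Its signals were 1096, 1419.6 and 1258 on day -17, 4026, 7899.7 and 5407 on day 1 and 4628, 6536 and 4294 on day 17. All 6 later values lay above all 3 day -17 values, and days 1 and 17 overlapped. SLC28A3 rose 4.45-fold on day 1 against day -17 (2.15 ± 0.24, adjusted p = 0.00033) and 4.05-fold on day 17 (2.02 ± 0.24, adjusted p = 0.000145), and its difference on day 17 against day 1 was -0.13 ± 0.24 with a 95% interval of -0.67 to 0.40.

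SLC29A1 encodes ENT1, the equilibrative nucleoside carrier. It averaged 106 ± 17.5 on day -17, 225 ± 57.98 on day 1 and 259 ± 34.6 on day 17 and rose on day 1 (1.07 ± 0.24, adjusted p = 0.0112) and on day 17 (1.29 ± 0.24, adjusted p = 0.00188) against day -17. With E. coli scaling its day 1 difference no longer passed (log2 0.64, adjusted p = 0.0521) and that of day 17 turned (log2 -0.0091, adjusted p = 0.973). By limma, 0 of the 2 passed on day 17 against day 1, 0 had an unadjusted p under 0.05, and the difference of SLC29A1 was 0.23 ± 0.24, adjusted p = 0.562.

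The listed enzymes of nucleoside metabolism moved in both directions, with 2 higher and 2 lower of 9 on day 1 against day -17, 0 and 2 on day 17 against day 1, and 1 and 2 on day 17 against day -17. The medians were -0.30, -0.11 and -0.19. In these comparisons, 15.3%, 8.02% and 23.8% of all genes rose and 10.4%, 8.57% and 23.8% fell. HPRT1, which salvages hypoxanthine and guanine, fell on day 17 against day 1 (-0.58 ± 0.16) and day -17 (-1.07 ± 0.16). CDA, cytidine deaminase, fell on day 17 against day -17 (-2.84 ± 0.77), and PNP, a purine nucleoside phosphorylase, on day 17 against day 1 (-0.66 ± 0.19). TK2, a mitochondrial thymidine kinase, fell on day 1 (-0.83 ± 0.25), whereas ADK, adenosine kinase, rose (0.65 ± 0.19).

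**Figure D3:**
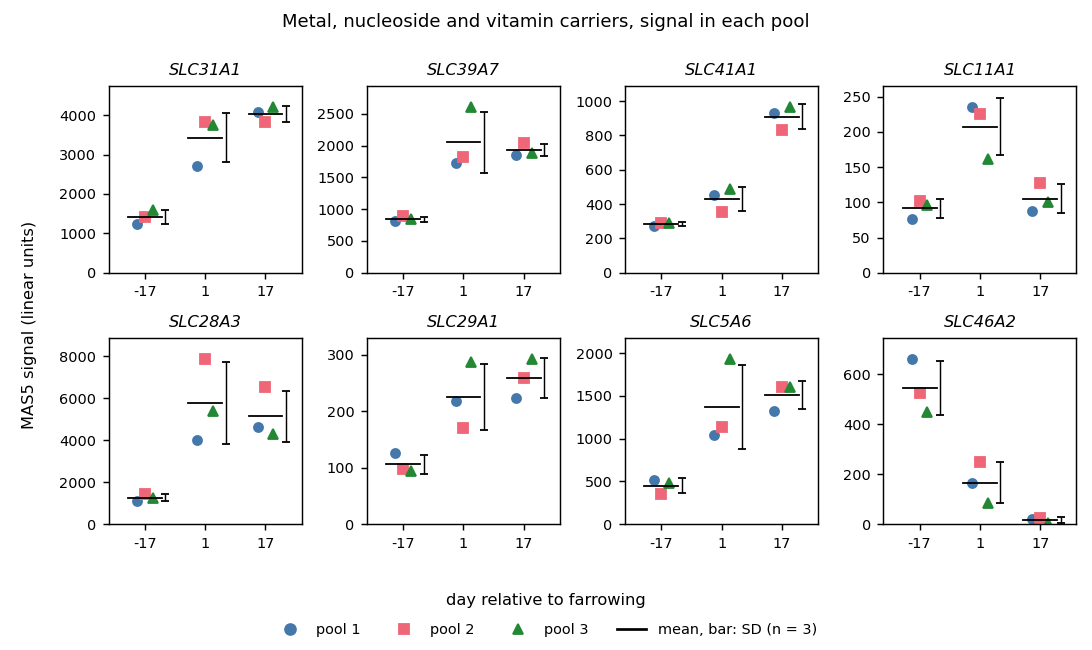
Linear MAS5 signal of 8 metal, nucleoside and vitamin carriers in each pool by day relative to farrowing, with the mean and the SD over 3 pools. SLC28A3, SLC31A1, SLC39A7 and SLC5A6 separate day -17 from both later days, SLC11A1 peaks on day 1, and SLC46A2 declines over the 3 days. With E. coli scaling the day 17 differences of SLC39A7 and SLC29A1 from day -17 turned.

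Among the 7 tested carriers of vitamins, choline, haem and related substrates, 1 rose and 1 fell on day 1 against day -17. On day 17 against day 1, 0 rose and 1 fell, and on day 17 against day -17, 1 rose and 1 fell. The rise was that of SLC5A6 and the fall that of SLC46A2 each time.

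SLC5A6 encodes the sodium-dependent carrier of biotin and pantothenate, cofactors of acetyl-CoA carboxylation and of coenzyme A. It had signals of 518, 355 and 483 on day -17, 1048, 1137 and 1936 on day 1 and 1323, 1605 and 1608 on day 17. Every later pool lay above every day -17 pool. SLC5A6 rose 2.96-fold on day 1 (1.57 ± 0.24, adjusted p = 0.00173) and 3.37-fold on day 17 (1.75 ± 0.24, adjusted p = 0.000304) against day -17, and with E. coli scaling the day 17 rise no longer passed (log2 0.45, adjusted p = 0.0866).

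SLC46A2 is related to the proton-coupled folate carrier and was first described in thymic stroma. It had the largest difference among the tested members. Its signals were 662, 525 and 447 on day -17, 164, 250.2 and 85.6 on day 1 and 22.9, 25.6 and 5.24 on day 17, with all 3 day 17 arrays below the filter level. The days did not overlap, each later day being lower. SLC46A2 fell on day 17 against day -17 (-5.21 ± 0.59, adjusted p = 0.00011), by 17.04-fold with a pseudocount of 16, and on day 17 against day 1 (-3.39 ± 0.59, adjusted p = 0.00721), by 5.22-fold. Without day 17 pool 3 these log2 differences were -4.47 and -2.65, and both still passed. The fall on day 1 against day -17 (-1.82 ± 0.59, adjusted p = 0.0483) was lost on leaving out day -17 pool 1, 2 or 3, day 1 pool 1 or 3 or day 17 pool 1, with quantile normalization, with median centring, with no filter, with the filter at the 60th percentile and with no intensity trend (adjusted p 0.0512 to 0.168).

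The other 5 were SLC44A2 and SLC44A4 of the choline-carrier family, SLC46A1, the proton-coupled folate carrier, SLC46A3 and the riboflavin carrier SLC52A2. None passed a comparison, with log2 differences of -0.91 to 0.46 (adjusted p 0.0553 to 0.741). SLC44A4 was lower with the block on day 1 and on day 17 (adjusted p = 0.035) against day -17. Second probe sets of SLC44A2 (0.71 ± 0.16, adjusted p = 0.00567) and SLC46A1 (1.37 ± 0.49, adjusted p = 0.0429) were higher on day 17 against day -17. In both genes the tested probe sets differed in sign in that comparison.

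The SLC25A family of mitochondrial carriers, counted here with the peroxisomal SLC25A17, was the largest group, with 18 tested members. On day 1 against day -17, 3 rose and 1 fell, on day 17 against day 1, 1 rose and 1 fell, and on day 17 against day -17, 6 rose and 4 fell. In the last comparison 10 of 18 passed, 55.6% against 47.6% of all genes, so the share was near the background. The medians were -0.075, -0.018 and 0.097 in the 3 comparisons.

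SLC25A1 encodes the citrate carrier, which exports citrate for fatty acid synthesis. It had signals of 1969, 2112 and 2810.3 on day -17, 2973, 3176 and 3899 on day 1 and 5404, 4894 and 5296 on day 17. The 3 days did not overlap, and each later day was higher. SLC25A1 rose on day 1 against day -17 (0.55 ± 0.16, adjusted p = 0.0298), on day 17 against day 1 (0.64 ± 0.16, adjusted p = 0.0248) and on day 17 against day -17 (1.19 ± 0.16, adjusted p = 0.000256). The day 1 call was lost on leaving out day -17 pool 1 or 2 or day 1 pool 2 or 3, with no intensity trend and with the 6 compared samples alone (adjusted p 0.0546 to 0.104), and that of day 17 against day 1 on leaving out day 1 pool 1 or 2 or day 17 pool 1, 2 or 3 and with no intensity trend (adjusted p 0.0516 to 0.0797). Both day 17 differences turned with E. coli scaling (log2 -0.23 against day 1 and -0.11 against day -17).

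SLC25A39, which brings glutathione into mitochondria, averaged 631 ± 53.3 on day -17, 1151 ± 193 on day 1 and 1465 ± 83.9 on day 17. It rose on day 1 (0.86 ± 0.15, adjusted p = 0.00347) and on day 17 (1.22 ± 0.15, adjusted p = 0.000181) against day -17, the day 17 difference turning with E. coli scaling (log2 -0.087). SLC25A33, a pyrimidine nucleotide carrier, had signals of 512, 1065 and 1217 on day -17, 1361, 1413 and 1789 on day 1 and 1835, 1544 and 1869.9 on day 17. Day -17 lay below both later days, its pool 1 lowest. SLC25A33 rose on day 17 against day -17 (1.000 ± 0.28, adjusted p = 0.0149), turning with E. coli scaling (log2 -0.30). Its day 1 difference was 0.79 ± 0.28, adjusted p = 0.0644 and passed with the block (adjusted p = 0.0339). Its second probe set, below the filter level on all day -17 arrays, had a day 1 difference of 2.36, and of 1.50 with a pseudocount of 16.

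The ADP/ATP carriers exchange cytosolic ADP for mitochondrial ATP. SLC25A5 had signals of 3719, 4096 and 4110.1 on day -17, 5401, 7666 and 8155 on day 1 and 5271, 5369 and 5666 on day 17. Every later pool lay above every day -17 pool. SLC25A5 rose on day 1 against day -17 (0.81 ± 0.15, adjusted p = 0.0045) and on day 17 against day -17 (0.45 ± 0.15, adjusted p = 0.0316). The day 17 rise turned with E. coli scaling (log2 -0.85) and was lost on leaving out day -17 pool 1, 2 or 3 or day 17 pool 1, 2 or 3, with quantile normalization and with no intensity trend (adjusted p 0.059 to 0.102).

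SLC25A4 and SLC25A6, the other ADP/ATP carriers tested, passed no comparison. SLC25A6 averaged 15189.6 ± 2112 on day -17, 14003 ± 2551 on day 1 and 13311 ± 487 on day 17, with a difference on day 17 against day -17 of -0.18 ± 0.15 and a 95% interval of -0.51 to 0.14. SLC25A3, the phosphate carrier, likewise averaged 14117 ± 1359 on day -17, 13362 ± 2835 on day 1 and 13018 ± 780.0 on day 17, with -0.11 ± 0.16 and an interval of -0.46 to 0.23. Both intervals lie within a 2-fold change under the authors' scaling. E. coli scaling lowers these differences by 1.30, to beyond a 2-fold fall. A second tested probe set of SLC25A3 had the opposite sign on day 1 and on day 17 against day -17.

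SLC25A17, a carrier of coenzyme A and other cofactors in peroxisomes, rose on day 17 against day -17 (0.54 ± 0.15, adjusted p = 0.0155), the call being lost on leaving out day -17 pool 2 or day 17 pool 1 or 3 (adjusted p 0.0509 to 0.0601) and the direction turned with E. coli scaling (log2 -0.76). SLC25A37, the iron importer mitoferrin 1, rose in that comparison by 0.36 ± 0.13, adjusted p = 0.0469, and turned with E. coli scaling (log2 -0.94). Its call was lost on leaving out day -17 pool 1, 2 or 3, day 1 pool 1 or 2 or day 17 pool 1, 2 or 3, with no filter, with no intensity trend and with the pool number as a block (adjusted p 0.0505 to 0.13).

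Falls in the family were led by SLC25A24 and SLC25A21. SLC25A24, a calcium-regulated carrier of ATP-magnesium and phosphate, had signals of 1624, 1123 and 1246 on day -17, 1544, 793 and 1073 on day 1 and 457, 586 and 482 on day 17. The day 17 pools lay below all others. SLC25A24 fell on day 17 against day 1 (-1.12 ± 0.24, adjusted p = 0.0151), lost on leaving out day 17 pool 1 or 3 (adjusted p 0.0536 to 0.0558), and against day -17 (-1.38 ± 0.24, adjusted p = 0.00124).

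SLC25A21, a carrier of oxodicarboxylates of amino acid breakdown, had signals of 791, 1125 and 1102 on day -17, 510.4, 614 and 408 on day 1 and 412, 540.4 and 437 on day 17. Day -17 lay above both later days, which overlapped. SLC25A21 fell on day 1 (-0.98 ± 0.20, adjusted p = 0.00769) and on day 17 (-1.11 ± 0.20, adjusted p = 0.00169) against day -17.

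SLC25A12, an aspartate-glutamate carrier of the malate-aspartate shuttle, fell on day 17 against day -17 (-0.57 ± 0.16, adjusted p = 0.0126), a call lost with quantile normalization (adjusted p = 0.0506). SLC25A36, the second pyrimidine nucleotide carrier, fell too (-0.64 ± 0.23, adjusted p = 0.0412), a call lost on leaving out day -17 pool 1, 2 or 3 or day 17 pool 1 or 3, with quantile normalization, with median centring, with no filter, with the pool number as a block and with the 6 compared samples alone (adjusted p 0.0507 to 0.108). The other members were SLC25A4, SLC25A11, SLC25A14, SLC25A20, SLC25A30 and SLC25A38, among them the oxoglutarate (SLC25A11) and acylcarnitine (SLC25A20) carriers. Their log2 differences were -0.71 to 0.80 (adjusted p 0.0646 to 0.832). SLC25A30 was lower on day 17 against day -17 with the block (adjusted p = 0.0416).

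**Figure D4:**
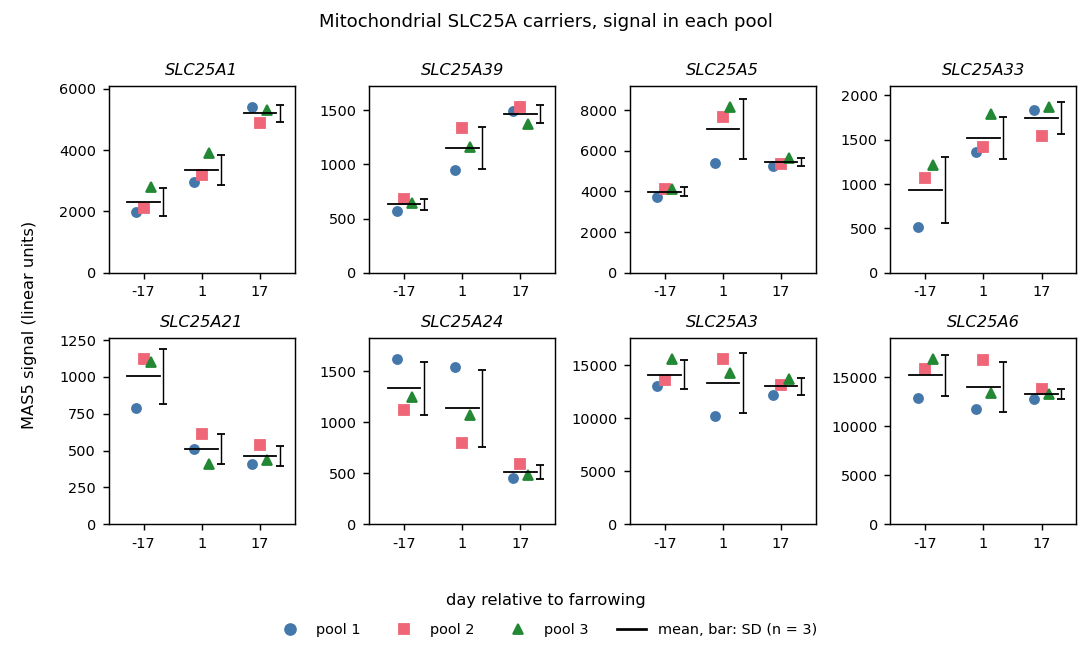
Linear MAS5 signal of 8 mitochondrial SLC25A carriers in each pool by day relative to farrowing, with the mean and the SD over 3 pools. SLC25A1 and SLC25A39 separate all 3 days upwards, SLC25A21 and SLC25A24 decline, and SLC25A3 and SLC25A6 overlap on all days. With E. coli scaling the day 17 differences of SLC25A1, SLC25A39, SLC25A5 and SLC25A33 from day -17 turned.

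Of 19 listed mitochondrial pores, pyruvate carriers and matrix fuel enzymes, 4 rose and 2 fell on day 1 against day -17, 0 and 2 on day 17 against day 1, and 2 and 6 on day 17 against day -17. The medians were 0.17, -0.30 and 0.089. In these comparisons, 15.3%, 8.02% and 23.8% of all genes rose and 10.4%, 8.57% and 23.8% fell. PC, pyruvate carboxylase, fell on day 1 (-1.69 ± 0.55) and on day 17 (-1.94 ± 0.55) against day -17. Of the outer membrane pores, VDAC2 rose on day 1 (1.12 ± 0.14) and on day 17 (0.81 ± 0.14) against day -17. VDAC1 and VDAC3 fell on day 17 against day 1 (-0.69 ± 0.15 and -0.55 ± 0.13). Both fell on day 17 against day -17 (-0.99 ± 0.15 and -1.11 ± 0.13), and VDAC3 also on day 1 against day -17 (-0.57 ± 0.13).

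Of the 8 tested carriers of inorganic ions, 0 rose and 1 fell on day 1 against day -17, 1 rose and 0 fell on day 17 against day 1, and 1 rose and 1 fell on day 17 against day -17, with medians of -0.14, 0.27 and 0.097. Their shares called either way were 12.5%, 12.5% and 25%, against 25.7%, 16.6% and 47.6% of all genes.

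SLC26A11, a sulphate and chloride carrier of lysosomes, gave both of the first calls. Its signals were 276, 308 and 260.2 on day -17, 152, 163 and 141 on day 1 and 300.1, 289 and 350.1 on day 17, day 1 lying below both other days. SLC26A11 fell on day 1 against day -17 (-0.89 ± 0.17, adjusted p = 0.00528) and rose on day 17 against day 1 (1.04 ± 0.17, adjusted p = 0.00549). A second probe set of SLC26A11, above the filter level on the day 17 arrays alone, had differences of 0.30 on day 1 and 1.69 on day 17 against day -17, and with the mean over probe sets the day 1 call was lost (adjusted p = 0.393).

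SLC26A6, an exchanger of chloride, bicarbonate and oxalate, averaged 329 ± 71.3 on day 17, against 158 ± 23.02 on day -17 and rose (1.05 ± 0.22, adjusted p = 0.00312), turning with E. coli scaling (log2 -0.25). SLC8B1, the sodium-calcium exchanger of mitochondria, averaged 95.5 ± 14.03 on day 17, against 195 ± 17.1 on day -17 and fell (-1.03 ± 0.22, adjusted p = 0.00382). SLC5A5 encodes the iodide symporter, which concentrates iodide in thyroid and lactating breast. Its signals were 558, 703 and 530.0 on day -17, 346, 424 and 606 on day 1 and 436, 475 and 529 on day 17. Every day 17 value lay below every day -17 value, but the difference did not pass (-0.31 ± 0.21, adjusted p = 0.255).

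The other ion carriers were SLC12A4, a potassium-chloride cotransporter, SLC4A2, an anion exchanger, and the sodium-proton exchangers SLC9A4 and SLC9A5. None passed, with log2 differences of -0.39 to 1.07 (adjusted p 0.101 to 0.985). SLC9A3R1, the scaffold NHERF1 that binds exchangers and channels at the apical membrane, is no carrier. It had signals of 1639, 2250.3 and 2351 on day -17, 4611, 5089 and 6357 on day 1 and 8035, 7106 and 6861 on day 17. The days did not overlap. SLC9A3R1 rose on day 1 (1.37 ± 0.17, adjusted p = 0.000538) and on day 17 (1.83 ± 0.17, adjusted p = 3.14e-05) against day -17. Its relative SLC9A3R2 passed no comparison (log2 -0.44 to 0.21, adjusted p 0.0606 to 0.279).

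Ion pumps, channels and kinases, which set the gradients that carriers use, were listed beside the ion carriers. Of 19 tested, 5 rose and 0 fell on day 1 against day -17, 4 and 2 on day 17 against day 1, and 6 and 4 on day 17 against day -17, with medians of 0.13, -0.00067 and 0.40. In these comparisons, 15.3%, 8.02% and 23.8% of all genes rose and 10.4%, 8.57% and 23.8% fell. ATP2C2, a calcium and manganese pump of the secretory pathway, rose on day 1 (1.86 ± 0.40, adjusted p = 0.009) and on day 17 (3.37 ± 0.40, adjusted p = 0.000145) against day -17. FXYD2, a regulatory subunit of the sodium pump, rose on day 1 (1.39 ± 0.33) and on day 17 (2.92 ± 0.33) against day -17 and on day 17 against day 1 (1.53 ± 0.33). The mean signal of FXYD2 on day -17 was 50.2, below the filter level, so the size of its rises from that day is uncertain. ATP2C2 and KCNQ1, a potassium channel, rose by 1.50 ± 0.40 and 1.50 ± 0.29 on day 17 against day 1.

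Of the 4 tested carriers of monocarboxylates and organic ions, SLC22A3 and SLC22A8 were called higher and SLC16A13 lower on day 17 against day -17, and SLC22A8 was tested only through its day 17 signals. Among all genes, 23.8% rose and 23.8% fell on day 17 against day -17. By limma with day as the only term, 0 of 4 passed in the other comparisons, with 1 on day 1 against day -17 and 2 on day 17 against day 1 at an unadjusted p under 0.05. SLC16A13, a member of the monocarboxylate carrier family, had signals of 349.8, 451 and 553 on day -17, 151, 192 and 309.8 on day 1 and 73.1, 183 and 219.8 on day 17. All later pools lay below all day -17 pools. SLC16A13 fell on day 17 (-1.63 ± 0.41, adjusted p = 0.00857), and on day 1 its difference of -1.09 ± 0.41, adjusted p = 0.0764 passed with the block alone.

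SLC22A3 encodes the organic cation carrier OCT3. It gave 424, 198 and 261 on day -17, 554, 205 and 217 on day 1 and 696, 536 and 949.8 on day 17, so that the day 17 pools lay above all day -17 pools and day 1 overlapped both. SLC22A3 rose on day 17 against day -17 (1.34 ± 0.40, adjusted p = 0.0206), a call lost on leaving out day -17 pool 2 or 3 or day 17 pool 1 or 3 (adjusted p 0.0518 to 0.0773), and its difference on day 17 against day 1 (1.28 ± 0.40, adjusted p = 0.0602) had the smallest p of the group there without a block.

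SLC22A8, the organic anion carrier OAT3, was below the filter level on all arrays of days -17 and 1, with signals of 34.6, 11.5 and 34.4 on day -17, 46.1, 11.4 and 60.1 on day 1 and 141, 96.5 and 106 on day 17. It was tested only because all 3 day 17 arrays, where it was high, reached that level, so its call on day 17 against day -17 (2.24 ± 0.72, adjusted p = 0.0266; 3.13-fold with a pseudocount of 16) is given as a description. The call was lost on leaving out day -17 pool 2 (adjusted p = 0.0876), and without any 1 day 17 pool SLC22A8 did not pass the filter. SLC22A5, the carnitine carrier, passed no comparison (log2 -0.30 to 0.35, adjusted p 0.329 to 0.866).

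Of 4 tested partners of monocarboxylate transport and lactate enzymes, 2 rose on day 1 against day -17, 1 fell on day 17 against day 1, and 3 rose and 1 fell on day 17 against day -17, with medians of 0.34, -0.10 and 0.45. In these comparisons, 15.3%, 8.02% and 23.8% of all genes rose and 10.4%, 8.57% and 23.8% fell. LDHA, the lactate dehydrogenase chain common in glycolytic tissue, rose on day 1 (0.78 ± 0.14) and on day 17 (0.64 ± 0.14), and HIF1A rose on day 1 (0.46 ± 0.12). LDHB, the other chain, fell on day 17 against day 1 (-0.997 ± 0.18) and day -17 (-1.43 ± 0.18).

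The 3 carriers of peptides and amino acids outside the left-out families differed from each other. By limma, 0 passed on day 1 against day -17, where 2 had an unadjusted p under 0.05, on day 17 against day 1, 1 rose, and on day 17 against day -17, 1 rose and 1 fell. Among all genes, 15.3%, 8.02% and 23.8% rose and 10.4%, 8.57% and 23.8% fell in the 3 comparisons. SLC15A2 encodes the peptide carrier PEPT2. Its signals were 80.9, 121 and 129.6 on day -17, 101, 118 and 69.96 on day 1 and 250.1, 201 and 335 on day 17, the day 17 pools lying above all others.

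SLC15A2 rose on day 17 against day 1 (1.45 ± 0.30, adjusted p = 0.0143) and day -17 (1.24 ± 0.30, adjusted p = 0.00763), and the second of these turned with E. coli scaling (log2 -0.059). The call against day 1 was lost on leaving out day 17 pool 3 (adjusted p = 0.0575), and with the filter at the 60th percentile the reported probe set was not tested. SLC15A1, the intestinal peptide carrier PEPT1, had 221, 79.1 and 98.8 on day -17, 157, 488 and 558 on day 1 and 95.4, 179 and 97.3 on day 17. Pools 2 and 3 of day 1 were higher than any other pool, and pool 1 was not. Its differences were 1.54 ± 0.52, adjusted p = 0.0557 on day 1 against day -17 and -1.56 ± 0.52, adjusted p = 0.0736 on day 17 against day 1, the first passing with the pool number as a random block (adjusted p = 0.0459).

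SLC36A2, a proton-coupled carrier of small amino acids, varied widely between pools. It gave 491, 54.9 and 306 on day -17, 100.4, 19.5 and 4.27 on day 1 and 7.34, 28.8 and 27.3 on day 17. On day -17, pools 1 and 3 were high and pool 2 low, and all day 17 arrays lay below the filter level. SLC36A2 fell on day 17 against day -17 (-3.49 ± 1.18, adjusted p = 0.033), by 6.35-fold with a pseudocount of 16, and its log2 difference was -4.43 without day -17 pool 2. The call was lost on leaving out day 17 pool 1, 2 or 3 (adjusted p 0.0512 to 0.107), and without day -17 pool 1 or 3 or day 1 pool 1, or with the 6 compared samples alone, the gene did not pass the filter. Its day 1 difference was -3.32 ± 1.18, adjusted p = 0.0647.

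Of the carriers of lipids and acetyl groups, SLC33A1 changed and SLC27A6 did not pass. Thus 1 of 2 rose on day 1 against day -17, 1 of 2 fell on day 17 against day 1, and 0 passed on day 17 against day -17, where 1 had an unadjusted p under 0.05 by limma. SLC33A1, the acetyl-CoA carrier of the endoplasmic reticulum, had signals of 396, 454 and 389.8 on day -17, 594, 704 and 787 on day 1 and 372, 423 and 417 on day 17, day 1 lying above both other days. It rose on day 1 against day -17 (0.74 ± 0.16, adjusted p = 0.00782) and fell on day 17 against day 1 (-0.78 ± 0.16, adjusted p = 0.0115), the fall being lost with the mean over its probe sets (adjusted p = 0.0535). Its difference on day 17 against day -17 was -0.032 ± 0.16, with a 95% interval of -0.38 to 0.31.

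SLC27A6, a member of the fatty acid transport proteins, had signals of 685, 162 and 233 on day -17, 437, 96.9 and 72.9 on day 1 and 86.2, 149 and 67.7 on day 17. Pool 1 was highest on days -17 and 1. Its difference on day 17 against day -17 was -1.63 ± 0.69, adjusted p = 0.0759, and it passed with the block (adjusted p = 0.0279).

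On day -17 the order of the pools in SLC27A6, SLC36A2 and SLC2A5, with pool 1 highest and pool 2 lowest, was also that of the adipocyte markers LIPE (1425, 257 and 876 in pools 1 to 3), GPD1 (846, 204 and 651) and ADIPOQ (547, 73.9 and 319). All 9 tested adipocyte markers had their highest day -17 value in pool 1 and their lowest in pool 2, and none was at 0. Other members had that order on day -17 too. Among them, SLC5A6, SLC22A3 and SLC2A4 rose and SLC25A24 fell on day 17 against day -17. SLC12A4, SLC15A1 and SLC2A4RG, also with that order, did not pass in that comparison. How many of all genes had that order was not counted, and the match was seen only after the values were known. The part of fat cells in the results of SLC27A6, SLC36A2 and SLC2A5 was not tested.

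SLC2A4RG, a transcription regulator named after the GLUT4 gene, had signals of 1468, 1021 and 1384 on day -17, 693, 513 and 374 on day 1 and 882, 969.7 and 1226 on day 17. Day 1 lay below both other days. SLC2A4RG fell on day 1 against day -17 (-1.32 ± 0.24, adjusted p = 0.00382) and rose on day 17 against day 1 (0.99 ± 0.24, adjusted p = 0.0227), the rise being lost on leaving out day 1 pool 2 or 3 or day 17 pool 2 or 3 (adjusted p 0.0545 to 0.0841).

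Several further rises kept their direction under E. coli scaling without passing the test there. On day 1 against day -17 these were SLC11A1, SLC25A1, SLC33A1, SLC37A1 and SLC41A1 beside SLC29A1 (adjusted p 0.0517 to 0.469). For day 17 against day 1 they were SLC15A2, SLC26A11, SLC2A4RG, SLC35C1 and SLC41A1 (adjusted p 0.108 to 0.676). Those of day 17 against day -17 were SLC22A3, SLC22A8, SLC2A4, SLC31A1 and SLC35C1 beside SLC5A6 (adjusted p 0.0866 to 0.941). The rises of SLC50A1, SLC28A3, SLC35A3, SLC35B1, SLC35B2, SLC41A1 and SLC9A3R1 on day 17 against day -17 passed under that scaling too.

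The 19 members that did not pass the filter were SLC2A2 and SLC45A2 among sugar carriers, SLC17A1, SLC26A3, SLC4A4, SLC8A1 and SLC9A3 among ion carriers, SLC10A1, SLC16A3, SLC22A2 and SLC22A6 among carriers of monocarboxylates and organic ions, SLC23A1 and SLC23A2 among vitamin carriers, SLC25A46, SLC25A48 and SLC25A51, and SLC27A1, SLC28A1 and SLC39A2. Their signals ranged from 0.575 to 113 over all 9 arrays, and they enter no count. SLC16A3, the lactate exporter MCT4, did not exceed 75.4 on any array, and SLC28A1, a relative of SLC28A3, did not exceed 51.7.

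**Figure D5:**
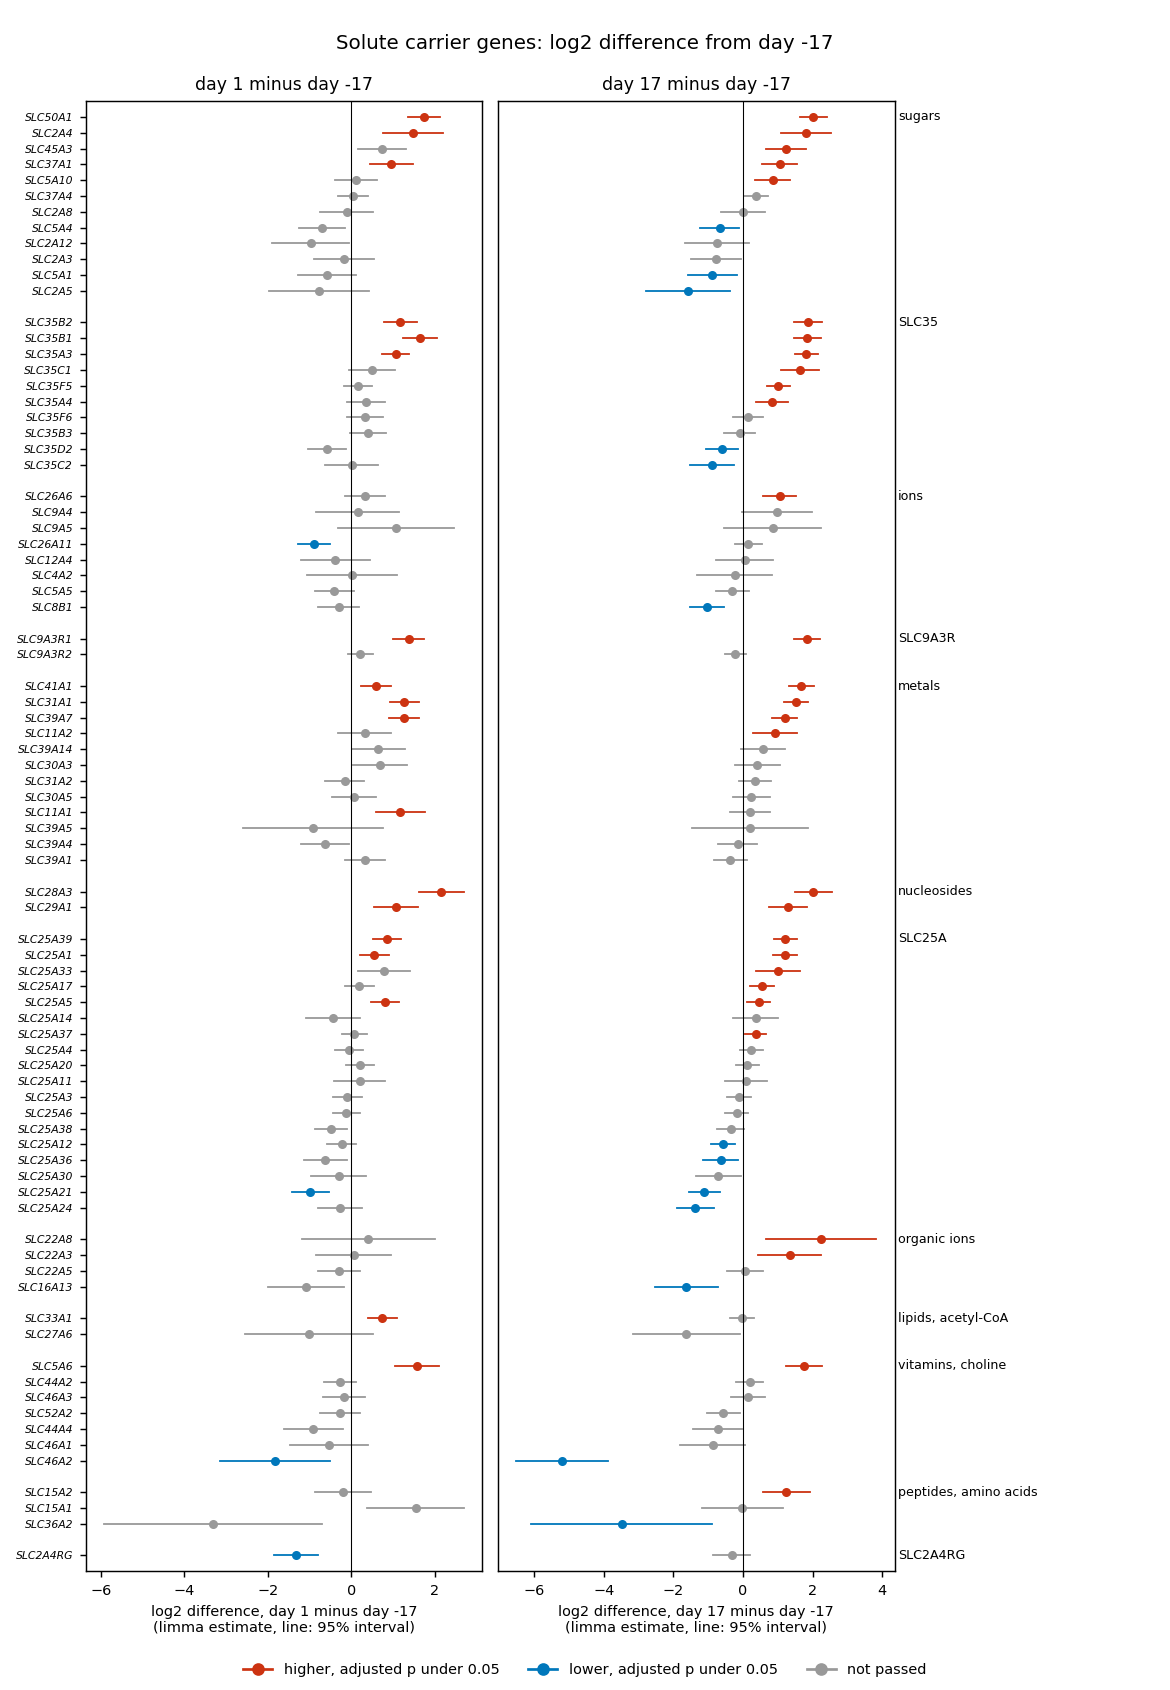
Log2 difference of the tested solute carrier genes on day 1 against day -17 and on day 17 against day -17, by substrate group. Points are limma estimates, lines their 95% intervals, and colours mark genes called higher or lower at an adjusted p under 0.05, with the other genes in grey. SLC28A3 and SLC50A1 lie near the upper end on both days and SLC46A2 at the lower end on day 17. SLC22A8, tested only through its day 17 signals, lies above both on day 17 (2.24). E. coli scaling would move all points left, by 0.43 on day 1 and by 1.30 on day 17.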

How the data were processed

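Mammary gland RNA of 6 sows was measured on 9 Affymetrix porcine arrays, 3 pools of 2 sows on each of 3 days. The deposited intensities, 1 linear signal per probe set and array, were made by the authors; the submitters' processing notes name MAS5 and give no version. The trimmed mean signal of every array lay between 500.0884 and 500.1122 (2% trimmed at each end). Within a day, Spearman's rho between pools, taken over probe sets that are not independent, was 0.954 to 0.976.

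The log2 of the signal was used without a pseudocount. Control probe sets (124) were left out, and 15519 endogenous probe sets at or above the 40th percentile of their array (signals of 82.1 to 94.2) in at least 3 arrays were tested. Symbols came from the platform annotation, and 5 probe sets that list a solute carrier among several symbols were left out. All arrays were fitted together in limma 3.58.1 (R 4.3.3; lmFit and eBayes with an intensity trend, 10.3 degrees of freedom), with day as the only term, two-sided tests and Benjamini-Hochberg adjustment at 0.05. With 3 pools against 3, an exact permutation test has a smallest p of 0.1 and was not used. The code was tested on simulated data.

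The labels number the pools 1 to 3 on each day without saying which sows a number holds. Same-numbered pools deviated together with correlations of 0.235 to 0.506 for day 1 against day -17 and 0.105 to 0.130 for day 17 against day -17, over 0.1 in all 3 pairs each, but 0.0960 to 0.107 for day 17 against day 1, over 0.1 in 1 of 3. Pools of different numbers had correlations of -0.387 to 0.113, -0.0739 to -0.0421 and -0.0768 to -0.0268 in the same order of comparisons.

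The members, substrate groups, other gene lists and tests were chosen with earlier results of these data known. In each group and comparison the rule for names took the 4 called genes with the largest difference in the majority direction and the 2 largest in the other, or the smallest p where 0 passed. In the other lists the 2 called genes of largest difference are named. All 9 values were required for genes that differ at least 4-fold between day means (SLC28A3, SLC50A1 and SLC46A2), and the others shown with 9 values, like genes named outside the rule, were chosen after their values were seen. Folds with a pseudocount of 16 are given for solute carriers below the filter level on all arrays of a day, and not for genes of the other lists. Promoter and protein sequences were not used here.

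Alternatives were quantile normalization, median centring, E. coli scaling, a pseudocount of 16, no filter and a 60th percentile filter, no intensity trend, the 6 compared samples alone, the mean over a gene's probe sets, a fixed or a random block for the pool number, a minimum fold of 2, and each array left out in turn.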

Additional observations from a re-analysis of the deposited data

How the results depend on the processing

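Of the calls, 13 of 22 on day 1 against day -17, 1 of 13 on day 17 against day 1 and 11 of 42 on day 17 against day -17 were kept under every alternative run except the minimum fold of 2, which 10, 1 and 11 of them also passed, and 14, 5 and 23 were kept under all but E. coli scaling and that minimum. With E. coli scaling the counts for day 1 against day -17 were 12 higher and 24 lower (18 and 4 as reported), for day 17 against day 1 they were 0 and 49 (9 and 4), for day 17 against day -17 they were 7 and 53 (29 and 13), and the F test called 65 (38). That scaling turned 4 rises on day 17 against day 1, to a log2 difference of -0.23 for SLC25A1, -0.020 for SLC35F5, -0.12 for SLC35A3 and -0.18 for SLC35B2. It also turned the positive differences under 0.87 that had not passed, among them those of SLC29A1 and SLC5A10, to -0.65 and -0.14. On day 17 against day -17 it turned 16 rises, to -0.85 for SLC25A5, -0.94 for SLC25A37, -0.48 for SLC35A4, -0.29 for SLC35F5, -0.45 for SLC5A10, -0.11 for SLC39A7, -0.38 for SLC11A2, -0.25 for SLC26A6, -0.059 for SLC15A2, -0.087 for SLC25A39, -0.11 for SLC25A1, -0.30 for SLC25A33, -0.76 for SLC25A17, -0.0091 for SLC29A1, -0.078 for SLC45A3 and -0.25 for SLC37A1. This follows from the subtraction of 0.43, 0.87 or 1.30 from every difference, and why the controls gained signal was not tested. With the pool number as a block, fixed or random, 8 genes were lower on day 1 against day -17 either way. The labels do not say which sows a pool number holds. With the random block, 8 genes were lower on day 17 against day 1. There SLC22A3 (adjusted p = 0.0175 with the fixed and 0.0355 with the random block) and SLC26A6 (0.0255 and 0.0298) passed as higher under both. The block moved no other count by over 1.5 times, and the calls it changed on day 1 or 17 against day -17 stand beside their genes, apart from SLC25A38 (adjusted p = 0.0473 on day 1) and SLC52A2 (0.0446 on day 17), lower with the random block. With a minimum fold of 2, 2 genes were lower on day 1 against day -17, 4 higher and 2 lower on day 17 against day 1, and 7 lower on day 17 against day -17. With the 60th percentile filter 7 were lower on day 17 against day -17, as 56 of the 81 genes were then tested. Leaving out each array gave 15 to 21 higher and 3 to 6 lower on day 1 against day -17, 6 to 10 and 2 to 6 on day 17 against day 1, 23 to 29 and 7 to 14 on day 17 against day -17, and 32 to 45 by the F test.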
